A study of Homo sapiens with 18 samples.

Results

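S100 proteins are small calcium-binding proteins of the EF-hand type that mostly act as dimers. Calcium binding opens a surface on the dimer, which then takes hold of a partner such as an annexin, a myosin heavy chain or a cytoskeletal linker, and some members are also released from cells and bind receptors such as TLR4 and AGER (RAGE). In liver cancer and other carcinomas several members, S100A4 and S100P among them, are known for their association with motility and invasion, and S100A8 and S100A9 for their abundance in neutrophils and monocytes. The 10 genes described here are S100A2, S100A4, S100A6, S100A8, S100A9, S100A10, S100A11, S100A13, S100A14 and S100P, out of 19775 genes that had a probe set annotated to them alone. The set was chosen by family and because S100A4 and S100A8 were lower after knockdown of ATAD2 in single lines. The knockdown values of these 2 genes are therefore a description with no test.

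The target of the siRNA, ATAD2, is an AAA+ ATPase whose bromodomain binds acetylated histones, and the cells were lines from human hepatocellular carcinoma. The 18 arrays form 6 groups of 3, which are ATAD2 siRNA and control siRNA in the lines labelled Hep3B, SNU449 and PLC (PLC/PRF/5). All cells were grown in RPMI and transfected with a lipid reagent, so the control groups carry a non-targeting siRNA and the reagent too. The samples are labelled as biological replicates, and neither the time after transfection nor the siRNA sequences could be taken from the sources used. All 4 ATAD2 probe sets separated ATAD2 siRNA from control arrays within each line without overlap, with group means lower by between 2.04-fold and 13.9-fold. The labels Hep3B and SNU449 run against what is known of those lines. RB1, which Hep3B lacks, had a mean log2 signal of 4.44 on control arrays labelled SNU449 against 9.47 on those labelled Hep3B, and the hepatocyte marker ALB 13.8 against 3.03. Below, a line name means the arrays so labelled.

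The 10 genes were read by 14 probe sets, 1 each for 6 genes and a pair each for S100A6, S100A8, S100A10 and S100A13. Every value is a log2 signal after quantile normalization over the 18 arrays. Of a pair, the probe set with the higher mean over all arrays is called the main one. The main probe sets of S100A4 and S100A8 carry an s in their names, by which the array's maker marks probes that may match more than 1 transcript. Since the samples are bulk RNA, fewer cells that express a gene and less of its RNA per cell cannot be told apart.

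In the RefSeq table of GRCh38.p14, 9 of the 10 genes lie on chromosome 1, where 16 of the 20 S100 genes are placed, and S100P lies on chromosome 4. All 10 genes had promoter entries, with 15 start sites in all. The 100 bases before the start are printed for the 2 genes that the set was chosen for (S100A4 and S100A8), for S100A9, the partner of S100A8, for S100P, the member on another chromosome, and for S100A6, whose promoter lacks the letters marked in the others. They span chr1:153545807-153545906 on the minus strand (S100A4), chr1:153391074-153391173 on the minus strand (S100A8, 1 of 3 starts), chr1:153357754-153357853 on the plus strand (S100A9), chr4:6693778-6693877 on the plus strand (S100P) and chr1:153535992-153536091 on the minus strand (S100A6). Each is written 5′ to 3′ on the strand of the gene, and capitals mark the TATA box letters TATAAA.
S100A4: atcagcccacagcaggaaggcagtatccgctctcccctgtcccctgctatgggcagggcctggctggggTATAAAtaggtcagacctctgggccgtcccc
S100A8: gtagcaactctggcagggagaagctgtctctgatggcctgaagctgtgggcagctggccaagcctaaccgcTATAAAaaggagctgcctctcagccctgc
S100A9: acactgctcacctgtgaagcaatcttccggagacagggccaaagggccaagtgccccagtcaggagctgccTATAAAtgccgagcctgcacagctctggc
S100P: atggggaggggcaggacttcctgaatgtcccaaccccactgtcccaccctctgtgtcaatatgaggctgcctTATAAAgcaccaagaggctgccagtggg
S100A6: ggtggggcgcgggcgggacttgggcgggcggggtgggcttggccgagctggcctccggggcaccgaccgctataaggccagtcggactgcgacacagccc

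A TATAAA on the gene's strand stood within the 100 bases before 5 of the 15 starts, each in a different gene, and in 3.51% of 35116 promoters of all genes, counted by start as well. Its first base lay 31 bases before the start in S100A4, 29 in S100A8, S100A9 and 1 of the 3 starts of S100A13, and 28 in S100P. CpG dinucleotides in the 250 bases before the start numbered 7 in S100A4, 2 in S100A8, 4 in S100A9 and 4 in S100P, against 24 in both S100A6 and S100A10 and 15 in S100A11, with a median of 11 over all promoters. The start of S100A13 with the TATA box had 10, and its other starts had 15 and 8. The 5 starts with these letters thus had fewer CpG dinucleotides than the median promoter, as had S100A2 (3 and 4 at its starts) and S100A14 (4), which lack the letters. On both strands of the same 250 bases, the E-box letters CACGTG were found in none of the 10 genes (6.34% of all promoters) and the E2F letters TTTNGCGC in none (1.51%). The AP-1 letters TGANTCA were found in S100A2 (6.57% of all promoters), and the GC box letters GGGCGG in S100A6, S100A9, S100A10, S100A11 and S100A13 (42.6%). No motif searched contains another, and a match is a description of letters only.

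S100A4, a cytoplasmic protein that binds the heavy chain of non-muscle myosin IIA and loosens its filaments, was lower with ATAD2 siRNA in all 3 lines, and by far the most in Hep3B. In Hep3B it had log2 signals of 6.33, 6.82 and 6.50 on the ATAD2 siRNA arrays, against 8.03, 8.24 and 8.33 on the control arrays. This is a difference of -1.65 ± 0.11 (SE, n = 3 each), or 3.14-fold, and the groups lay more than a log2 unit apart. In SNU449 it had 7.96, 8.06 and 7.95 with ATAD2 siRNA, against 8.38, 8.34 and 8.33 in control, a difference of -0.36 ± 0.11. PLC gave 5.89, 6.02 and 6.20 with ATAD2 siRNA, against 6.24, 6.43 and 6.40 in control, a difference of -0.32 ± 0.11. The groups did not overlap in any line, but in SNU449 and PLC the gap between them was narrow. MYH9, the gene of its myosin partner, had 9.89 with ATAD2 siRNA and 10.1 in control in Hep3B and was not called there.

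S100A8 and S100A9 form calprotectin, a secreted heterodimer of myeloid cells that binds metal ions and TLR4. In SNU449, S100A8 had 6.09, 5.73 and 6.22 with ATAD2 siRNA, against 6.71, 6.90 and 7.19 in control, a difference of -0.92 ± 0.15 (SE, n = 3 each), or 1.90-fold, without overlap. In Hep3B it had 4.23, 4.29 and 4.17 with ATAD2 siRNA, against 4.55, 4.39 and 4.29 in control, and in PLC 3.64, 4.16 and 4.04 against 4.30, 4.03 and 4.20. Both of these groups overlapped, and at these levels S100A8 ranked above only 25.7% to 35.7% of all probe sets on the arrays. The second S100A8 probe set was at or under the 12th percentile in every group, and its differences were -0.02, -0.09 and 0.16 in Hep3B, SNU449 and PLC, so the difference in SNU449 rests on 1 of the 2 probe sets.

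S100A9 had 7.04, 6.86 and 7.02 in SNU449 with ATAD2 siRNA, against 7.33, 7.30 and 7.32 in control. The groups did not overlap, and the change of -0.34 ± 0.08 did not pass the test (limma, adjusted p = 0.161). It had 4.001, 3.996 and 4.21 in PLC with ATAD2 siRNA, against 4.29, 4.30 and 4.21 in control (-0.20, adjusted p = 0.160), and in Hep3B 4.41, 4.30 and 4.33 against 4.51, 4.49 and 4.29. Both calprotectin genes had their highest levels and their largest knockdown differences in SNU449, but for S100A9 the change did not pass the test of a difference between lines (limma F test, adjusted p = 0.329). Among myeloid markers the common leukocyte gene PTPRC had group means of 2.77 to 3.66 on all arrays. In SNU449 the sum of the 11 measured of 12 myeloid markers, a log2 value set mostly by lysozyme (LYZ), was 12.2 to 12.3 on both the ATAD2 siRNA and the control arrays. None of the 11 was called with knockdown there, beside only 0.0439% of all probe sets, so this count says little about these markers. CSF3R, a granulocyte receptor gene of that list, was 7.40 with ATAD2 siRNA and 7.77 in control in SNU449, a change of -0.37 ± 0.07 (adjusted p = 0.0547) in the same direction as that of S100A9, and its part in the S100A9 difference was not tested.

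**Figure D1:**
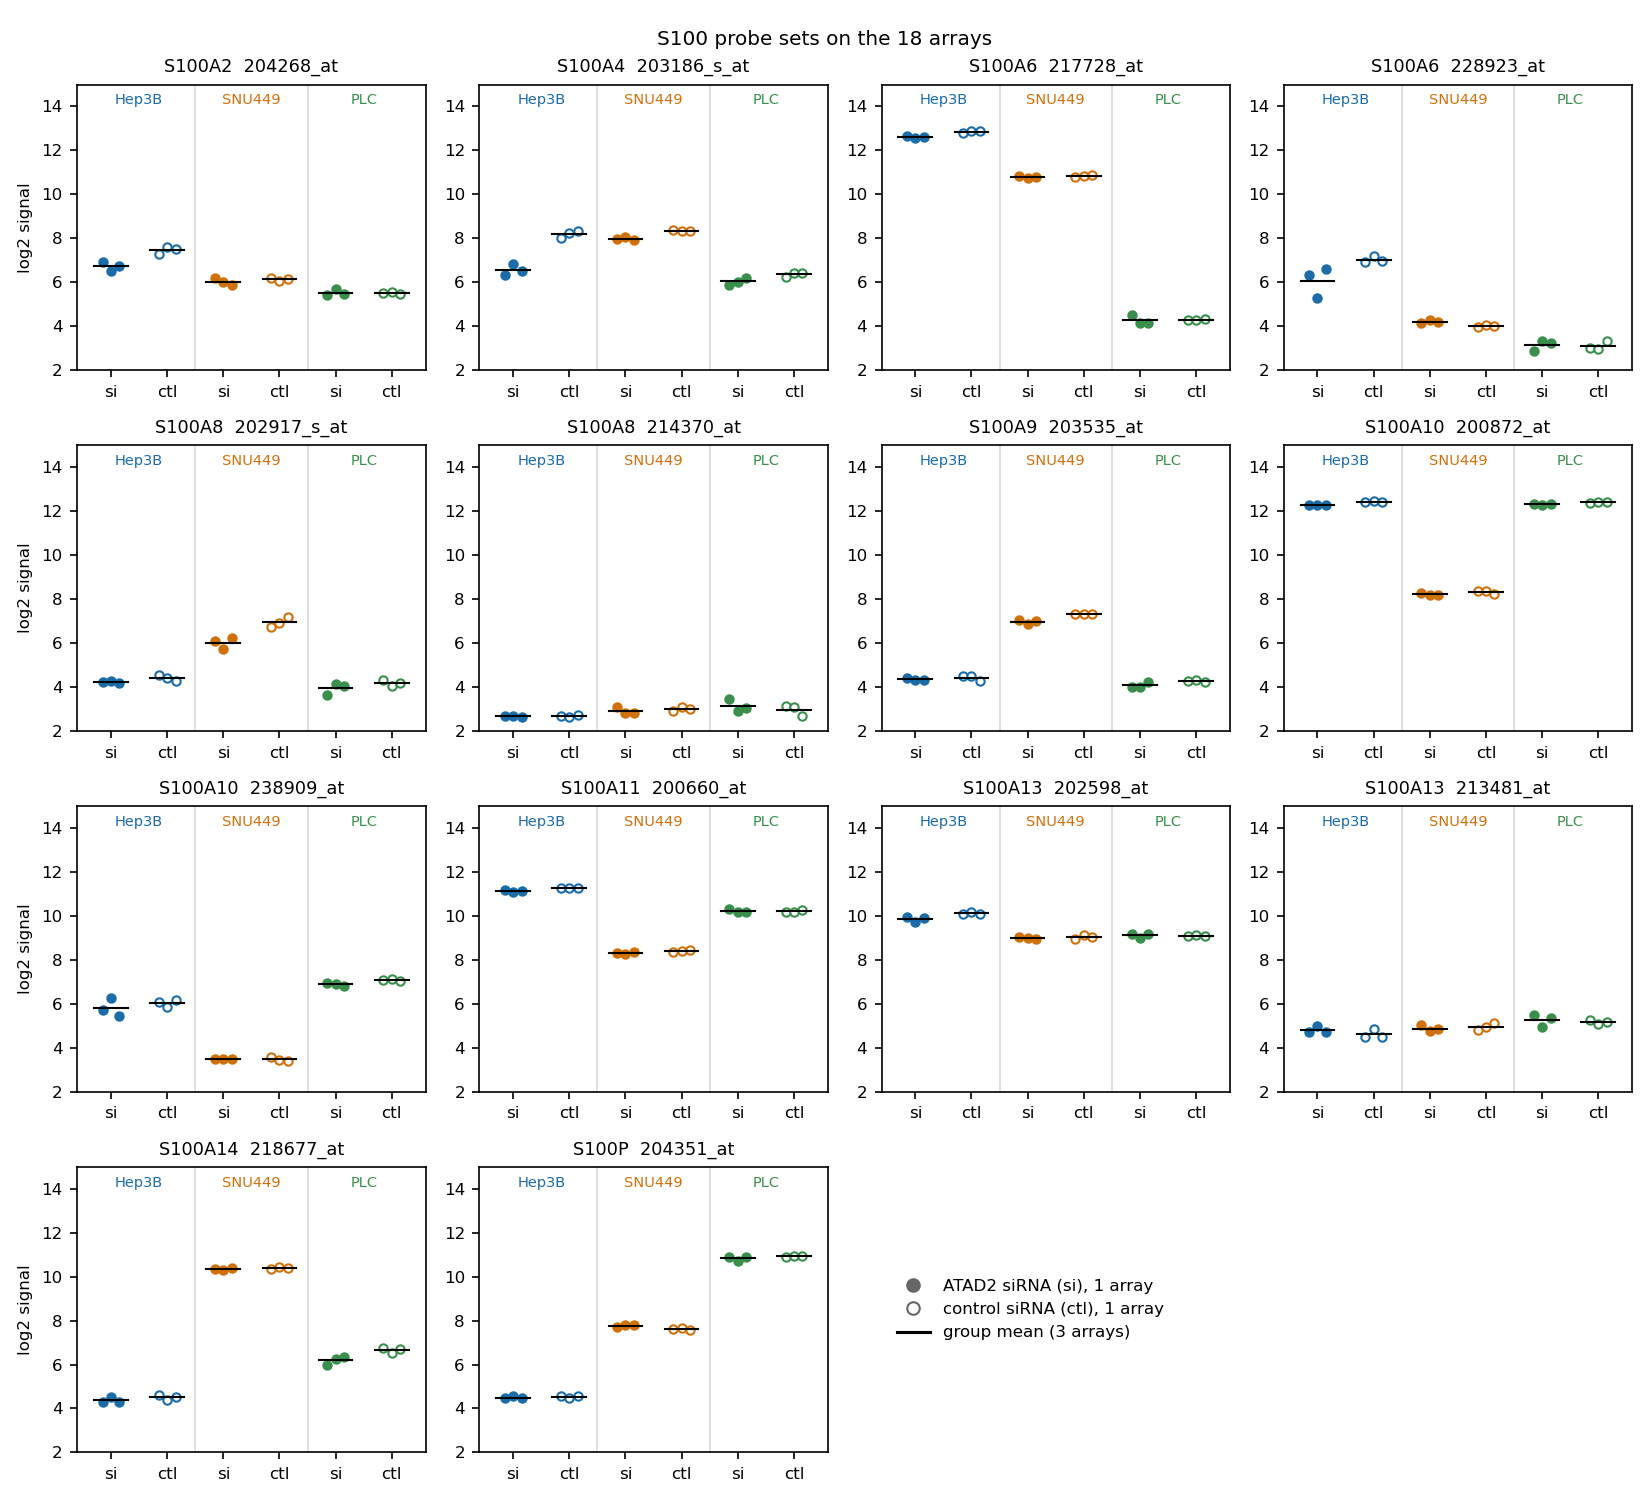
Log2 signal (y axis, quantile normalized) of each of the 14 S100 probe sets on the 18 arrays, with ATAD2 siRNA (filled points) left of control siRNA (open points) within each line and bars at group means. S100A4 on the Hep3B arrays (6.33 to 6.82 against 8.03 to 8.33) and the main S100A8 probe set on the SNU449 arrays (5.73 to 6.22 against 6.71 to 7.19) show the widest gaps of the main probe sets, while most other panels differ far more between lines than with the siRNA.

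Among the other 8 genes, S100A2, a mostly nuclear member of epithelial cells, had the smallest adjusted p. In Hep3B it had 6.93, 6.50 and 6.76 with ATAD2 siRNA, against 7.30, 7.59 and 7.51 in control. It fell by 0.73 on the log2 scale, or 1.66-fold, with an SE of 0.11 and no overlap (limma, adjusted p = 3.3e-04). In SNU449 it had 6.18, 6.03 and 5.88 against 6.20, 6.08 and 6.16 in control (-0.11, adjusted p = 0.998), and in PLC 5.42, 5.70 and 5.48 against 5.53, 5.54 and 5.47 in control (0.02, adjusted p = 0.949). The knockdown change of S100A2 differed between lines (limma F test, adjusted p = 0.0184), a call that was lost without Hep3B control array 2 (adjusted p = 0.0663) or 3 (adjusted p = 0.0575). It was 0.62 ± 0.16 higher in SNU449 than in Hep3B (adjusted p = 0.0451) and 0.75 ± 0.16 higher in PLC than in Hep3B (adjusted p = 0.0111). Between SNU449 and PLC the knockdown change differed by -0.13 (adjusted p = 0.741). S100A2 was 1 of 11 probe sets of these 8 genes that the F test called, against 4.67% of all probe sets.

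S100A6 (calcyclin), a partner of the ubiquitin ligase adaptor CACYBP, was measured by a bright and a dim probe set that differed in size. The bright one had 12.65, 12.59 and 12.62 in Hep3B with ATAD2 siRNA, against 12.80, 12.87 and 12.87 in control, a change of -0.23 ± 0.08 that did not pass the test (adjusted p = 0.0877). The dim one had 6.34, 5.27 and 6.62 against 6.90, 7.18 and 6.97 in control and fell by 0.94 on the log2 scale, with an SE of 0.23 (limma, adjusted p = 0.0157). Array 2 of the ATAD2 siRNA group lay under the other two by more than a log2 unit in this probe set. Without it the change was -0.54 (adjusted p = 0.0244), and without array 2 of the control group it was -0.86 (adjusted p = 0.0752). The same ATAD2 siRNA array had an ACTB signal ratio of 5′ to 3′ probe sets of -0.56 on the log2 scale, against -1.04 and -0.99 on the other two and -1.04 to -0.83 in control, and with the mean of this ratio and that of GAPDH as a covariate the dim probe set changed by -0.92 (adjusted p = 0.0217). In SNU449 the dim probe set had 4.15, 4.29 and 4.19 with ATAD2 siRNA, all above the 3.97, 4.04 and 4.01 in control, without passing the test (0.20, adjusted p = 0.9998).

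S100A13, which takes part in the export of FGF1 and interleukin 1 alpha from cells, had 9.97, 9.70 and 9.88 in Hep3B with ATAD2 siRNA, against 10.10, 10.16 and 10.11 in control. Its main probe set fell by 0.27 on the log2 scale, or 1.21-fold, with an SE of 0.07 (limma, adjusted p = 0.0259). The call was lost on the deposited values (-0.23, adjusted p = 0.0599) and without ATAD2 siRNA array 2 (-0.19, adjusted p = 0.117), and also without control array 1, 2 or 3 (adjusted p = 0.0565, 0.104 and 0.0666). Its second probe set ran the other way by 0.19 and was not called (adjusted p = 0.563). In SNU449 and PLC the main probe set changed by -0.05 and 0.03, and the groups overlapped. FGF1 itself was 5.89 with ATAD2 siRNA and 5.53 in control in Hep3B, a rise of 0.36 (adjusted p = 0.0455).

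S100A14, an epithelial member of the family, was the only tested member called in PLC. It had 5.99, 6.23 and 6.33 with ATAD2 siRNA, against 6.75, 6.54 and 6.69 in control, and fell by 0.47 on the log2 scale, or 1.39-fold, with an SE of 0.10 (limma, adjusted p = 0.0166). On the deposited values it fell by 0.61. The ATAD2 siRNA arrays of PLC had the widest spread of the 6 groups over all probe sets (median SD 0.144, against 0.0954 on the PLC control arrays), and arrays 1 and 3 had ACTB ratios of -1.53 and -1.39, against -0.82 to -0.60 in control. With the mean ratio of ACTB and GAPDH as a covariate the change was -0.38 (adjusted p = 0.0937), and with PLC fitted alone the call was lost (adjusted p = 0.504). In PLC 5 of 7 measured hepatocyte markers, a list that also holds AFP, GPC3 and EPCAM, were called lower with ATAD2 siRNA. This stands beside 1.84% of all probe sets called lower there. TTR of that list did not fall, with 7.39 against 7.28 in control. The log2 summed signal of the list was 11.6 to 11.9 with ATAD2 siRNA against 12.3 in control. The part of these markers in the S100A14 result was not tested. In Hep3B and SNU449 the S100A14 groups overlapped (4.30 to 4.53 against 4.38 to 4.61 in Hep3B, and 10.28 to 10.40 against 10.32 to 10.44 in SNU449).

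S100A10 and S100A11 are partners of annexins, and S100A10, bound to annexin A2 at the cell surface, also holds plasminogen. The main S100A10 probe set had 12.27 on all 3 ATAD2 siRNA arrays of Hep3B, against 12.44, 12.48 and 12.40 in control, a change of -0.17 ± 0.06 without overlap (adjusted p = 0.0861). It had 8.27, 8.20 and 8.17 in SNU449 with ATAD2 siRNA, against 8.35, 8.36 and 8.23 in control, and 12.33, 12.28 and 12.33 in PLC against 12.36, 12.44 and 12.40 in control. S100A11 had 11.17, 11.10 and 11.11 in Hep3B with ATAD2 siRNA, against 11.27, 11.25 and 11.25 in control (-0.13, adjusted p = 0.219). Its change was -0.10 in SNU449 and 0.00 in PLC. The groups of the main S100A10 probe set did not overlap in PLC either (-0.08, limma, adjusted p = 0.447). The second S100A10 probe set changed by -0.23 in Hep3B, 0.01 in SNU449 and -0.19 in PLC, and its groups overlapped except in PLC. Neither gene passed the test in any line.

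S100P, first known from placenta and a partner of ezrin (EZR), did not pass the test in any line. It had 4.45, 4.57 and 4.47 in Hep3B with ATAD2 siRNA, against 4.57, 4.49 and 4.55 in control. In SNU449 it had 7.69, 7.79 and 7.78 against 7.63, 7.66 and 7.59 in control, where all ATAD2 siRNA arrays were above all control arrays (0.13 ± 0.06, adjusted p = 0.697). PLC gave 10.87, 10.73 and 10.90 with ATAD2 siRNA, against 10.87, 10.92 and 10.96 in control. EZR was 8.69 with ATAD2 siRNA and 9.12 in control in Hep3B and fell by 0.43 (limma, adjusted p = 0.00205), and S100PBP, a nuclear binding partner of S100P, fell by 0.36 there (adjusted p = 0.00154).

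Counted over the 11 probe sets of the 8 genes other than S100A4 and S100A8, 3 were called in Hep3B, all of them lower, beside 8.86% of all probe sets called in either direction and 3.78% called lower. In SNU449 0 of 11 were called with limma, beside 0.0439% and 0.0238% of all probe sets. There 1 of 11, S100A9, had an unadjusted limma p under 0.05, beside 7.49% of all probe sets. PLC had 1 of 11 called at the adjusted threshold, lower, beside 3.44% and 1.84%. Every ATAD2 siRNA array lay below every control array for 6 of these 11 probe sets in Hep3B, 2 in SNU449 and 4 in PLC, beside 13.3%, 10.03% and 8.44% of all probe sets. The median change of the 8 main probe sets was -0.15 with 8 of 8 below 0 in Hep3B, -0.07 with 7 of 8 in SNU449 and -0.05 with 5 of 8 in PLC. Over all probe sets the medians were -0.01, 0.00 and 0.00, with 52.5%, 51.4% and 48.8% below 0.

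**Figure D2:**
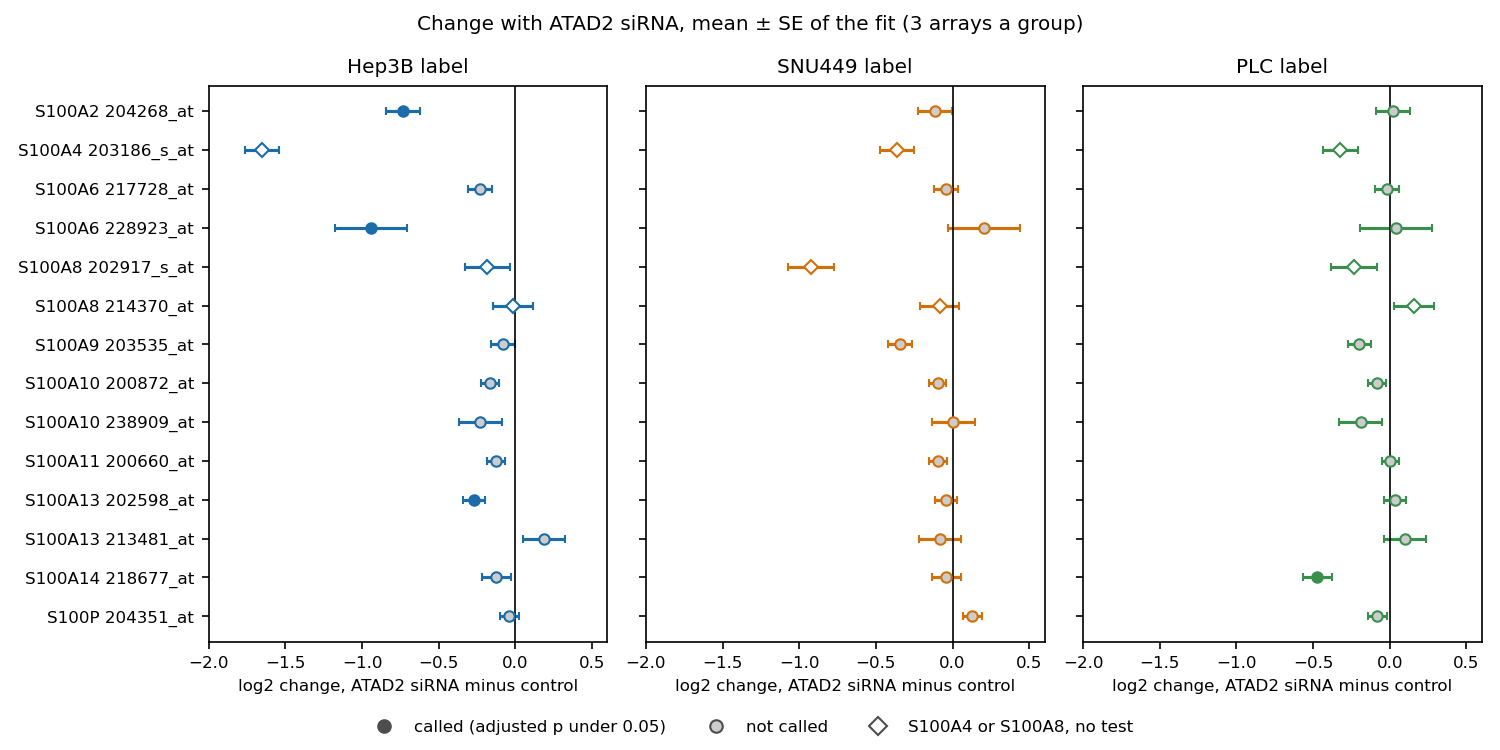
Log2 change with ATAD2 siRNA relative to control (x axis, limma estimate ± SE, 3 arrays a group) for each S100 probe set (rows) in each line (panels), with diamonds for S100A4 and S100A8, which have no test. The changes reach -1.65 for S100A4 in Hep3B and -0.92 for S100A8 in SNU449, and the 4 filled circles are S100A2, the dim S100A6 and the main S100A13 probe set in Hep3B and S100A14 in PLC.

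The 10 S100 genes outside the set were all measured, and none was called with knockdown in any line. This stands beside 8.86%, 0.0439% and 3.44% of all probe sets called in Hep3B, SNU449 and PLC. The medians of these 10 genes were -0.01, -0.03 and 0.04 in the same order. S100A3, which lies between S100A4 and S100A2 on chromosome 1, changed by -0.34 in Hep3B (adjusted p = 0.0622), and S100A5, on the other side of S100A4, by -0.19 (adjusted p = 0.185). By main probe sets in map order, the differences beyond 0.5 were those of S100A4 and S100A2 in Hep3B and of S100A8 in SNU449, with smaller ones between them. In Hep3B the main probe sets of the 16 S100 genes of chromosome 1 were below 0, except S100A7A (0.13) and S100A7 (0.07). This stands beside 52.5% of all probe sets below 0 there. Those below 0 include S100A4 and S100A8, which were chosen for being lower after knockdown, so their place among them is a description only. The dim S100A6 probe set, which is no main one, fell by 0.94 in Hep3B. A list of the epidermal differentiation complex, a run of skin barrier genes among the S100 genes, and of genes beside it had 15 of 19 genes measured. Of these THEM4 alone was called, with 7.10 on ATAD2 siRNA arrays and 7.36 on control arrays of Hep3B (-0.26, adjusted p = 0.0435). This is 1 of 15 in Hep3B, beside 8.86% of all probe sets called.

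**Figure D3:**
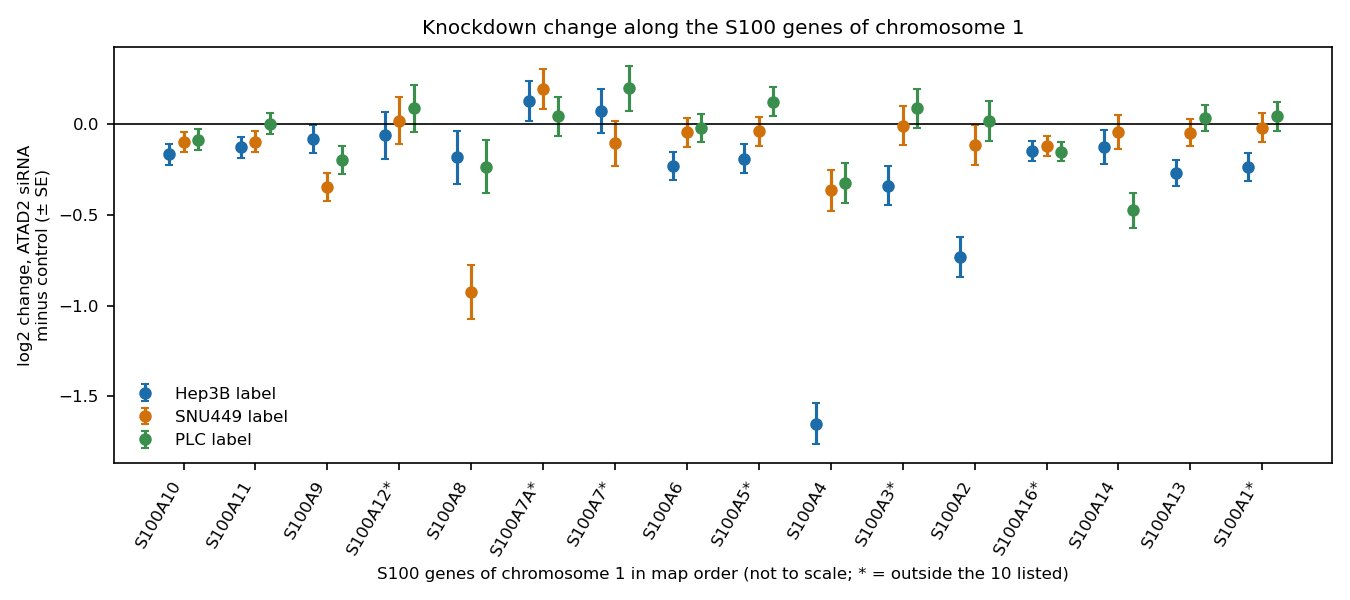
Log2 change with ATAD2 siRNA relative to control (y axis, ± SE) of the main probe set of each of the 16 S100 genes of chromosome 1, placed in map order on the x axis without scale, in the 3 lines. S100A4 in Hep3B (-1.65) stands beside S100A5 (-0.19) and S100A3 (-0.34), and S100A8 in SNU449 (-0.92) beside S100A12 (0.02) and S100A7A (0.20).

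Of 28 listed partners and receptors of S100 proteins, 26 were measured. In Hep3B 3 rose and 2 fell with ATAD2 siRNA, beside 8.86% of all probe sets called. In SNU449 and PLC limma called none, beside 0.0439% and 3.44% of all probe sets. An unadjusted limma p under 0.05 was found there for 1 and 4 of the 26, beside 7.49% and 19.6% of all probe sets. PLAT, the tissue plasminogen activator gene, was 7.10 with ATAD2 siRNA and 6.45 in control in Hep3B and rose by 0.65 (adjusted p = 5.2e-04). The gene of the calprotectin receptor TLR4 rose there by 0.37 (adjusted p = 0.0122), with 6.26 on ATAD2 siRNA arrays and 5.89 on control arrays. The other genes called in this list were FGF1, EZR and S100PBP, given above. The medians of the list were -0.03, -0.04 and -0.03 in the 3 lines, so partners moved in both directions in Hep3B.

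Levels on the control arrays differed widely between lines for most members. Differences between lines were not used to choose the genes, although the control values of S100A4 and S100A8 also enter the knockdown differences they were chosen for. The table used here has no detection call, so a dim probe set may be at its background, and a difference against one is given on the log2 scale with no fold. S100A6 had 10.82 ± 0.04 in SNU449 (SD, n = 3), 4.30 ± 0.02 in PLC and 12.85 ± 0.04 in Hep3B. All 3 levels differed from each other, by -8.55 for PLC minus Hep3B (limma, adjusted p = 7.2e-21), by -2.02 for SNU449 minus Hep3B and by 6.52 for SNU449 minus PLC. In PLC this probe set ranked above 33.2% of all probe sets, and in Hep3B above 99.7%. The dim S100A6 probe set gave the same order, with 4.01 in SNU449, 3.10 in PLC and 7.02 in Hep3B.

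The main S100A10 probe set had 12.40 ± 0.04 in PLC and 12.44 ± 0.04 in Hep3B, a pair that did not differ past the test (PLC minus Hep3B -0.04, 95% interval -0.16 to 0.08, adjusted p = 0.562). The second one had 7.08 ± 0.05 in PLC and 6.05 ± 0.17 in Hep3B and was higher in PLC (1.03, adjusted p = 6.8e-06, 0.49 on the deposited values), so the 2 probe sets differ on this pair. In SNU449 the main one had 8.31 ± 0.07, well under Hep3B (SNU449 minus Hep3B -4.13, 17.5-fold, adjusted p = 4.7e-19). S100A11 was also lowest in SNU449, with 8.40 ± 0.04 against 10.21 ± 0.03 in PLC and 11.25 ± 0.01 in Hep3B. Its annexin partner ANXA1 was 3.17 in SNU449, 10.1 in PLC and 12.1 in Hep3B, and S100A10's partner ANXA2 12.1, 12.9 and 13.3. The main S100A13 probe set had 9.04 ± 0.08 in SNU449, 9.09 ± 0.02 in PLC and 10.12 ± 0.03 in Hep3B, with no difference past the test between SNU449 and PLC (-0.05, 95% interval -0.20 to 0.10, adjusted p = 0.552). For PLC minus Hep3B it gave -1.03, whereas its second probe set gave 0.53 (adjusted p = 0.00318), with 5.15 in PLC and 4.63 in Hep3B, and -0.71 on the deposited values.

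S100A14 and S100P were lowest in Hep3B. S100A14 had 10.39 ± 0.06 in SNU449, 6.66 ± 0.11 in PLC and 4.50 ± 0.12 in Hep3B, a difference of 5.89 for SNU449 minus Hep3B (adjusted p = 3.4e-18), with Hep3B above 37.8% of all probe sets. S100P had 7.63 ± 0.04 in SNU449, 10.92 ± 0.04 in PLC and 4.54 ± 0.04 in Hep3B, a difference of 6.38 for PLC minus Hep3B (adjusted p = 1.5e-20), with Hep3B above 38.6%. Of the 3 genes with the widest range, S100A14 was highest in SNU449, S100P in PLC and S100A6 in Hep3B.

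S100A8 had 6.94 ± 0.24 in SNU449, 4.18 ± 0.13 in PLC and 4.41 ± 0.13 in Hep3B, and S100A9 7.32 ± 0.01, 4.27 ± 0.05 and 4.43 ± 0.12. Both were higher in SNU449 than in Hep3B, by 2.53 and 2.89 (limma, adjusted p = 1.2e-10 and 2.8e-15). The SNU449 control values of S100A8 also enter the fall it was chosen for, so its p-value is not independent of that choice. PLC and Hep3B did not differ past the test for either gene (adjusted p = 0.184 and 0.0743). On the deposited values, however, PLC minus Hep3B was -1.39 for S100A8 and -1.35 for S100A9. The summed myeloid markers were 12.2 to 12.3 on the SNU449 control arrays, 11.1 to 11.3 in PLC and 8.15 in Hep3B. LYZ set most of this sum in SNU449 and PLC, with 12.1 and 11.1, and was 2.37 in Hep3B. For SNU449 minus Hep3B 2 of the 11 markers were called higher and 0 lower, beside 17.1% of all probe sets called. Their median difference was 0.03. CSF3R was 7.77 in SNU449 and 6.02 in Hep3B, and PTPRC 3.27 and 3.66. The part of these markers in the S100A8 and S100A9 levels was not tested. S100A4 had 8.35 ± 0.03 in SNU449 and 8.20 ± 0.16 in Hep3B, which did not differ past the test (0.15, 95% interval -0.09 to 0.39, adjusted p = 0.271), and 6.36 ± 0.10 in PLC, which was lower (PLC minus Hep3B -1.84, adjusted p = 2.6e-10). The Hep3B control values of S100A4 likewise enter the fall it was chosen for. S100A2 had 6.15 ± 0.06 in SNU449, 5.51 ± 0.04 in PLC and 7.46 ± 0.15 in Hep3B. SNU449 and PLC differed by 0.63 (adjusted p = 8.7e-05), under the 1 log2 unit asked for here, and by 1.80 on the deposited values.

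With a threshold of adjusted p under 0.05 and a difference of at least 1 log2 unit, 11 of 14 probe sets differed for SNU449 minus Hep3B. For PLC minus Hep3B 9 differed, and 9 for SNU449 minus PLC. This stands beside 17.1%, 15.8% and 17.3% of all probe sets. S100A4 and S100A8 are in these counts, although their control values also enter the knockdown differences they were chosen for. By main probe sets of the 10 S100 genes outside the set, 0, 1 and 0 differed in the same order. Sorted deposited values differed by up to 1.51 between lines and by at most 0.16 within a line, so a level difference near 1 between lines depends on the normalization. Centred on the array medians, the PLC minus Hep3B difference was 0.37 for S100A11 and 0.30 for S100A13, the reverse of the -1.04 and -1.03 after quantile normalization. Of the S100 genes outside the set, S100A16 was high in all 3 lines, with 10.1 under the Hep3B label and 10.4 under each of the other labels, and S100A12 was lower in PLC than in Hep3B (-1.09, adjusted p = 1.3e-06), with 2.70 in PLC and 3.79 in Hep3B. Of 8 measured squamous epithelium markers among 11 listed, SFN alone differed between lines.

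**Figure D4:**
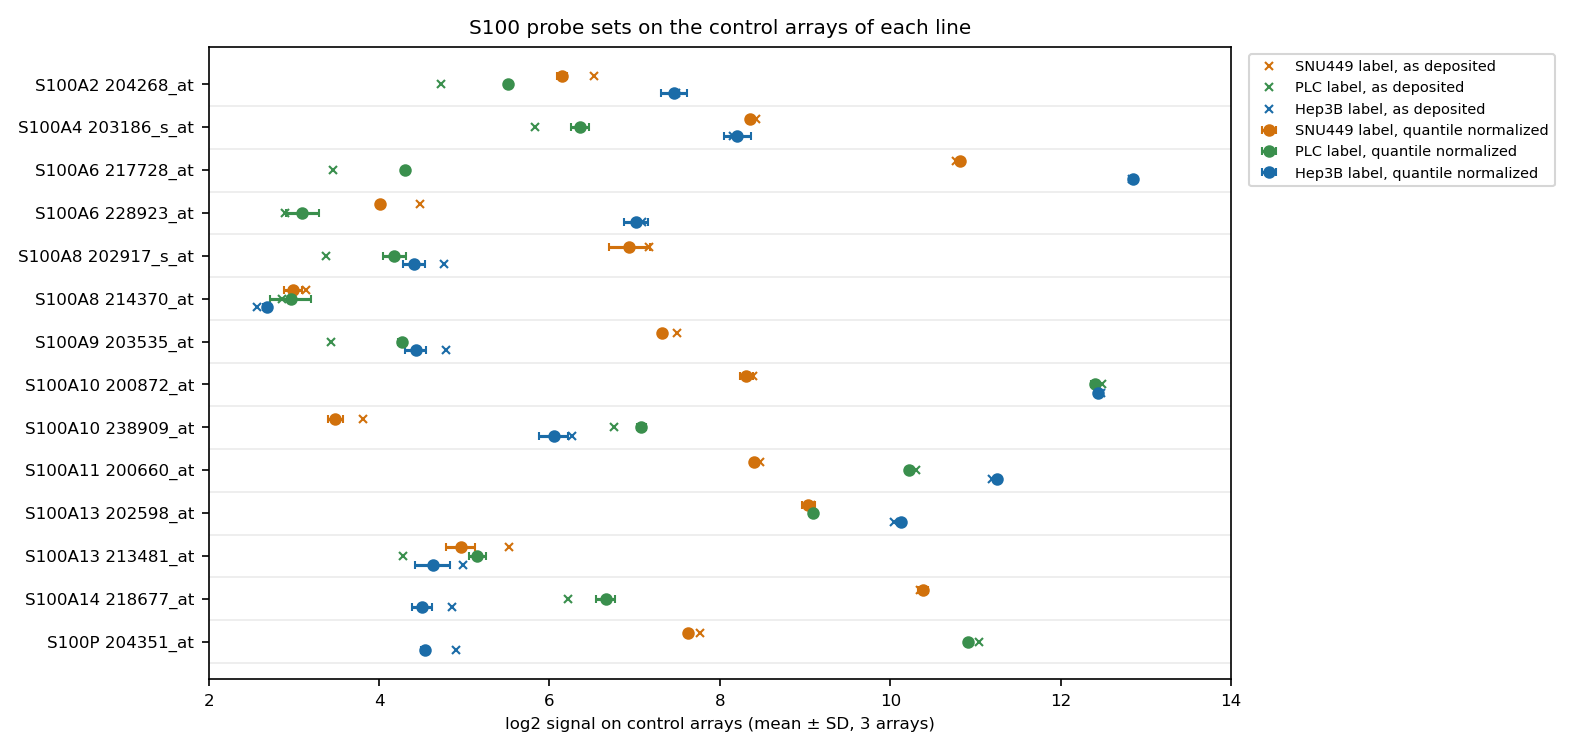
Mean log2 signal (x axis) of each S100 probe set (rows) on the 3 control arrays of each line, with circles ± SD for quantile normalized values and crosses for the values as deposited. The main S100A6 probe set had 4.30 in PLC against 12.85 in Hep3B, S100A14 10.39 in SNU449 against 4.50 in Hep3B and S100P 10.92 in PLC against 4.54 in Hep3B, and the crosses of PLC lie to the left of its circles for most dim probe sets.

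The genes with the pattern most like S100A4 were found by the root mean square difference of 6 centred group means, over 19774 other genes. They were KLHL28 (0.177), WDR72 (0.320), MEX3D (0.326), SMIM14 (0.337) and POLR3GL (0.342). KLHL28 had a mean of 6.10 with ATAD2 siRNA and 7.65 in control in Hep3B. In SNU449 its ATAD2 siRNA mean was 7.42 against 7.71 in control, and in PLC 5.83 against 6.17. For S100A8 they were SSTR2 (0.219), FMO4 (0.229), LOC105374809 (0.238), POU3F2 (0.244) and NPC1L1 (0.250). SSTR2, a somatostatin receptor gene, had 7.27 with ATAD2 siRNA and 7.63 in control in SNU449, a smaller difference than that of S100A8, so its likeness came mostly from the line levels.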

How the data were processed

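The deposited table holds log2 values of 54675 probe sets on 18 arrays, the log2 scale judged from its range of 1.33 to 14.0. How the authors corrected background and normalized is unstated in the labels and headers, and limma is named, without a version, per the submitters' processing notes. The members and gene lists were chosen with earlier results of these data known. Columns were quantile normalized over all arrays, since the lines looked normalized separately. The platform annotation listed 1 gene for 41097 probe sets, and for 41043 of these the symbol was taken from RefSeq by gene identifier. The model had 1 mean per group and was run in R 4.3.3 with limma 3.58.1 (12 residual and 4.01 prior degrees of freedom), with two-sided p-values adjusted over all probe sets by the Benjamini-Hochberg method, a threshold of 0.05 and, between lines, a difference of at least 1. For groups of this size the smallest two-sided p of an exact permutation test of 1 gene is 0.1, so none is given. The number of arrays limits the precision. The fit was checked on simulated data. Named genes were all 10 members, list genes with the largest called changes and the 5 genes most like S100A4 and S100A8. RB1 and marker lists of hepatocytes and mesenchymal cells served to check the labels. Replicate numbers did not pair the samples (correlations of deviations from -0.101 to 0.0714).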

Additional observations from a re-analysis of the deposited data

Results flagged for a closer look

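The knockdown change of S100A2 differed between the lines by a test of the difference itself (limma F test, adjusted p = 0.0184). The call was lost without Hep3B control array 2 (adjusted p = 0.0663) or 3 (adjusted p = 0.0575). It was -0.73 in Hep3B, -0.11 in SNU449 and 0.02 in PLC. S100A2 had control levels of 7.46, 6.15 and 5.51 in these lines, and the part of level in the difference was not tested. S100A4 and S100A8 are left out of this test's counts, since they were picked for changes in single lines.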

How the results depend on the processing

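The fall of S100A2 in Hep3B kept its direction and its call under all 29 alternatives, with changes from -0.83 to -0.56. As values with no test, S100A4 in Hep3B stayed between -1.78 and -1.39 and S100A8 in SNU449 between -1.03 and -0.71. Counts of knockdown calls are over the 11 probe sets of the other 8 genes. In Hep3B the 3 calls became 5 without the dimmest 30% of probe sets, 5 with an intensity trend and robust prior, 1 with only the Hep3B arrays in the fit, 1 at adjusted p under 0.01, and 1 to 4 when single arrays were left out, the 1 without control array 2. The added calls were the main probe sets of S100A6 and S100A10. They passed without the dimmest 30% (adjusted p = 0.0492 and 0.0481) or 50% (0.0317 and 0.0271) and with 1 probe set per gene (0.0460 and 0.0346), where fewer probe sets were tested, and with the trend and robust prior over all probe sets (0.0318 and 0.0103), and S100A6 passed also without PLC ATAD2 siRNA array 1 (0.0107). In SNU449 there was 1 call, S100A9, without the dimmest 50% (adjusted p = 0.0415), and 0 without any single array. In PLC the 1 call, S100A14, became 0 with only the PLC arrays, 0 at 0.01, 0 with the replicate block and 0 with the 5′ to 3′ covariate, an alternative added after the data were seen. The F test called 1 probe set, 4 on the deposited values, 2 with normalization within lines, 4 on centred arrays, 2 with the trend and robust prior, 0 with the replicate block (S100A2 adjusted p = 0.0804), 0 at 0.01 and 0 to 2 without single arrays, with 0 without Hep3B control array 2 or 3 and 2 without Hep3B ATAD2 siRNA array 3. The replicate block also ended the calls of S100A13 (adjusted p = 0.0956) and S100A14 (adjusted p = 0.0587), and line comparisons could not be fitted with it. On centred arrays S100A11 in SNU449 turned to 0.029, and for PLC minus Hep3B S100A11 to 0.37 and S100A13 to 0.30. Of level differences against a dim probe set, PLC minus Hep3B for S100A6 ranged from -9.37 to -8.13. Other causes were not tested.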
